A study of Caenorhabditis elegans with 12 samples.

Results

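DG3913 and VT1367 are the 2 control strains of a study of let-7 mutants in the nematode Caenorhabditis elegans, and RNA of their mid L4 larvae, taken as whole animals, was sequenced in 3 libraries per strain, lettered A, B and C. These are 6 of the 12 libraries. DG3913 carries lin-41(tn1541), an allele in which lin-41 is tagged with GFP, and served as the control of one let-7 mutant. VT1367 carries the transgene maIs105, an integrated col-19 reporter driving GFP, and served as the control of another. Neither strain is described as carrying a let-7 substitution, and each has a marker of its own. Cultures of both strains were started from synchronized larvae, grown at 20 °C and harvested 45 h after feeding, and total RNA was depleted of ribosomal RNA before sequencing. The values were raw read counts per gene in 2 tables, one for each strain with its mutant. The 46708 entries used are those found in both tables, without B0285.12, R144.15 and ZC155.8, which are 3 further entries of very high count. Strain, genotype and table change together, so their parts in any difference cannot be told apart. The labels do not say whether the letters name separate cultures, and the spread between letters may therefore be technical.

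The L4 is the last larval stage of the worm. During it the epidermis lays down the adult cuticle, which is built mostly of small collagens made in waves before each moult, and a periodic program of cuticle, moulting and hedgehog-related genes rises and falls within each larval stage. The germline of the hermaphrodite makes sperm in the L4 and switches to oocytes at the transition to the adult. The heterochronic genes, among them lin-41 and lin-29, order the change from larval to adult epidermis.

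Analysed counts were 4260691 to 7266422 per library in DG3913 and 6489014 to 9519463 in VT1367. The 3 entries left out took 66.1% to 76.8% of all counts in DG3913 and 0.866% to 0.926% in VT1367. Library DG3913 C stood apart from the other libraries. Protein-coding genes held 49.8% of its analysed counts, against 62.3% and 65.3% in DG3913 A and B and 67.9% to 68.9% in VT1367, and mitochondrial genes held 14.4% of its protein-coding counts, against 6.24% and 6.39% in DG3913 A and B. Results are therefore also given without it. Replicates differed by more than counting noise in all pairs, with a chi-square per degree of freedom of 2.62 to 4.50 in VT1367, 8.82 for DG3913 A and B, and 44.2 and 62.8 for the pairs with DG3913 C.

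Levels of different genes were compared per length, as TPM: counts divided by the exon length of the gene and scaled to the same total in each library over 19247 protein-coding genes, mitochondrial ones included. F41F3.3, a gene on chromosome V at 4647769 to 4648239 of the WBcel235 assembly, ranked first over both strains. Its TPM was 18669, 16034 and 21940 in DG3913 A, B and C and 37064, 40164 and 37903 in VT1367. All VT1367 libraries were above all DG3913 libraries, and it was the first gene in every library except DG3913 C, where it was 5. C02E7.7, also on chromosome V, was second, with 13584, 15654 and 10365 TPM in DG3913 and 19492, 18219 and 18296 TPM in VT1367, again without overlap between strains, and did not pass the test of the strain difference given further on.

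Genes of the mitochondrial genome followed. The cytochrome b gene ctb-1 reached 12575, 11974 and 28187 TPM in DG3913 and 9424, 9314 and 9581 TPM in VT1367. Of the cytochrome c oxidase subunits, ctc-1 ranked 4, ctc-3 ranked 7 and ctc-2 ranked 26, and of the complex I subunits nduo-6 ranked 5, nduo-1 ranked 11 and nduo-5 ranked 13, with the ATP synthase subunit atp-6 at rank 6. All 8 of these genes among the first 30 were highest in DG3913 C, where nduo-6 reached 31129 TPM against 9428 and 10920 TPM in DG3913 A and B. Mitochondrial genes lie close together or overlap, so reads at their borders may be shared.

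The highest nuclear genes after the first pair were rps-9, with 4594 to 8935 TPM in DG3913 and 8480 to 8855 TPM in VT1367, and F54D7.7, which the annotation names rpl-41.2, with 6221 to 7790 TPM and 7909 to 8596 TPM. Both encode proteins of the cytosolic ribosome, as do rpl-4, rla-1, rpl-23, rps-12, rps-20 and rps-10 among the first 30. The neuropeptide-like gene nlp-24 ranked 10, at 7547 to 8735 TPM in DG3913 and 6512 to 7029 TPM in VT1367. The sperm-specific genes ssq-1 and ssq-4 ranked 12 and 19, the muscle myosin light chain gene mlc-1 ranked 15, and the collagen gene col-159 ranked 21. The others were mai-2, which encodes an inhibitor of the mitochondrial ATP synthase, nlp-33, an antimicrobial peptide gene of the epidermis, R09B3.3, named rbm-3.2 in the annotation, and Y37E3.8, K08D12.3, F23A7.8 and C17F4.7. F23A7.8 varied most among the nuclear genes of this group, at 5509 and 5528 TPM in DG3913 A and B, 1278 TPM in DG3913 C and 3266 to 4620 TPM in VT1367.

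**Figure D1:**
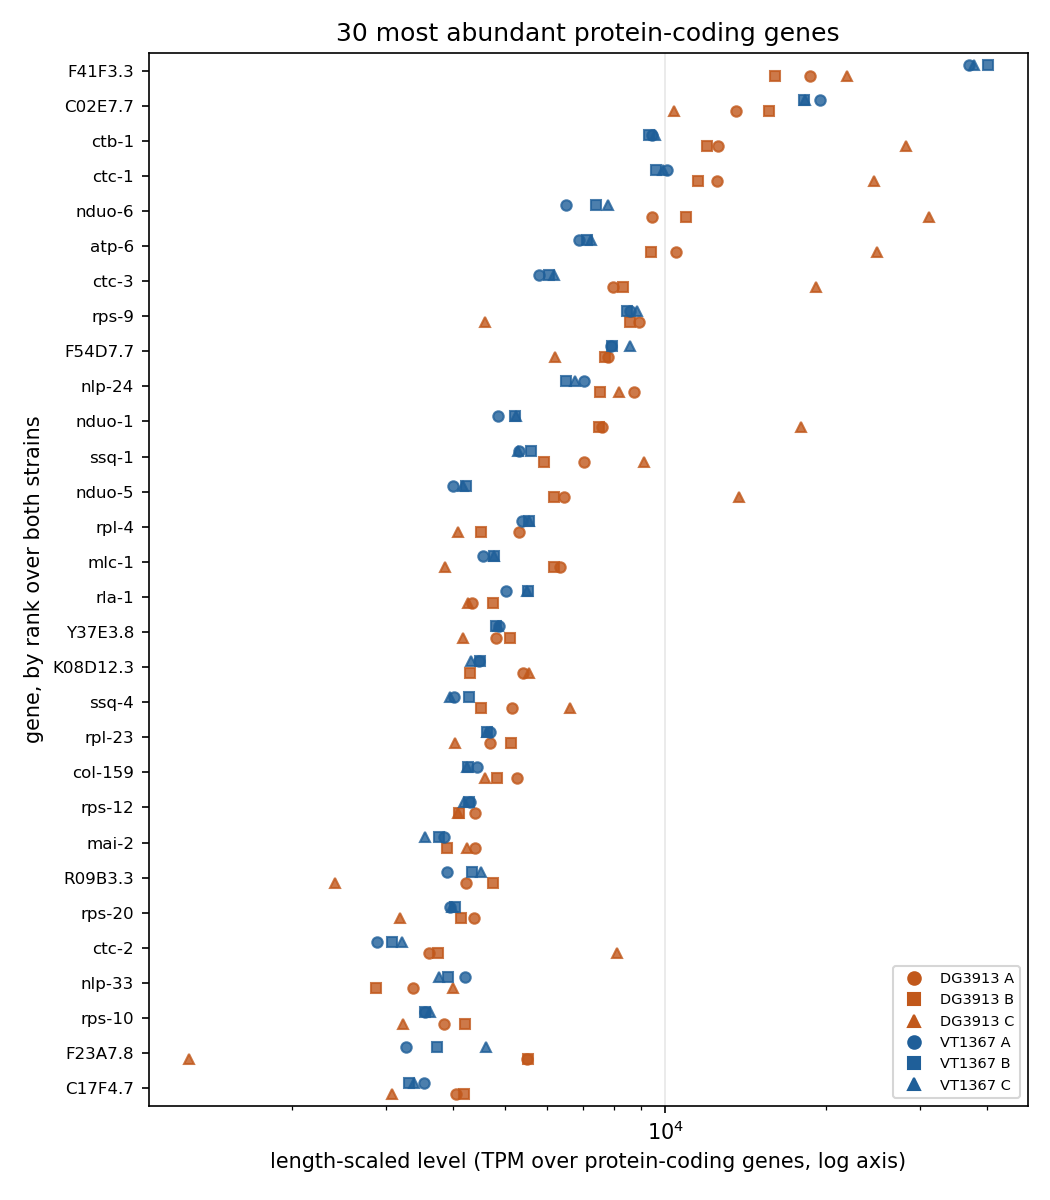
TPM of the 30 most abundant protein-coding genes (log axis) in each of the 6 libraries, coloured by strain with a marker for each letter. F41F3.3 lies at 37064 to 40164 TPM in VT1367 and 16034 to 21940 TPM in DG3913, and the mitochondrial genes are highest in DG3913 C.

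A small number of genes held much of the total. The 10 highest genes of each library held 11% to 12% of all TPM in 5 libraries and 20.1% in DG3913 C. The 100 highest held 37.3% to 38.1% in those 5 libraries and 44.0% in DG3913 C, and the 1000 highest held 71.6% to 74.0% over all 6.

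Among the gene lists, the cytosolic ribosomal proteins came first. Their 82 genes with a level held 14.2%, 15.0% and 9.75% of the TPM in DG3913 A, B and C and 14.4%, 14.4% and 14.8% in VT1367, and 32 of them were among the first 100 genes. The 12 respiratory chain genes of the mitochondrial genome were second, with 7.93%, 7.80% and 19% in DG3913 and 5.65%, 5.90% and 6.04% in VT1367, and all 12 were among the first 100. The strains did not overlap, and DG3913 C was again far above the other libraries. Collagens with col symbols came next. Those with a level held 5.29%, 4.65% and 4.29% in DG3913 and 5.97%, 5.44% and 5.50% in VT1367, without overlap. Ranked over both strains, col-159 and col-160, which the annotation shows overlapping each other, were the highest. In VT1367 alone the highest was col-106. Counts of near-identical collagen, msp, ssq and actin genes are uncertain, since reads may be shared.

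Muscle genes followed, with 2.42%, 2.40% and 2.03% in DG3913 and 2.16%, 2.14% and 2.18% in VT1367. Over nuclear genes alone these muscle genes held 2.63%, 2.60% and 2.50% in DG3913 and 2.29%, 2.28% and 2.32% in VT1367, without overlap. All 33 exceeded 1 TPM in every library, led by mlc-1, the troponin C gene pat-10 at 3156 to 3433 TPM in DG3913 and 2781 to 2955 TPM in VT1367, and the actin gene act-4 at 2196 to 2678 TPM and 2585 to 2738 TPM. The sperm list came after them, with 1.87%, 1.83% and 1.13% in DG3913 and 1.69%, 1.74% and 1.75% in VT1367. It held msp, ssp, nspd and msd genes with gsp-3 and gsp-4. The abundant ssq genes were not in it, so its place below muscle is not that of all sperm genes. Among its members, msd-4, related to the major sperm proteins, had 1738 to 4150 TPM in DG3913 and 3520 to 3783 TPM in VT1367. The gene msp-64 had 1223 to 1811 TPM and 1632 to 1744 TPM. Nuclear genes of oxidative phosphorylation held 1.43% to 1.73% in DG3913 and 1.52% to 1.55% in VT1367. With the TPM scaled over nuclear genes alone they held 1.76% to 1.88% and 1.61% to 1.65%, without overlap. In whole animals, fewer cells of a type and less RNA per cell cannot be told apart.

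Intestinal genes held 0.390% to 0.609% in DG3913 and 0.553% to 0.563% in VT1367. The aspartic protease gene asp-1 led them, at 2107 to 3686 TPM in DG3913 and 3379 to 3540 TPM in VT1367, whereas the intestinal GATA factor gene elt-2 had 11 to 12.7 TPM and 12 to 13.4 TPM. The yolk protein genes, which adults express strongly, held 0.131% to 0.235% in DG3913 and 0.137% to 0.170% in VT1367, with vit-6 at 567 to 1033 TPM and 568 to 705 TPM. Germline genes held 0.199% to 0.207% and 0.210% to 0.215%, led by the P granule gene pgl-1 at 277 to 312 TPM and 315 to 326 TPM and by gld-1, a translational repressor, at 207 to 315 TPM and 307 to 327 TPM. Pharyngeal genes held 0.0278% to 0.0353% and 0.0322% to 0.0387%, with 10 of 12 above 1 TPM in every library. Neuronal genes were the lowest list in VT1367 and over both strains, at 0.0277% to 0.0291% in DG3913 and 0.0266% to 0.0286% in VT1367, and the synaptobrevin gene snb-1 led it at 93.9 to 107 TPM and 79.1 to 98.0 TPM. In DG3913 cuticlins were lower still, at 0.0241% to 0.0270%, and moulting genes had the lowest mean, at 0.0215% to 0.0255%. Epidermal genes held 0.0383% to 0.0523% and 0.0793% to 0.116%, with 13 of 15 at 1 TPM or more in every library. Each of muscle, gut, epidermis, neurons, pharynx, germline and sperm thus had markers in every library, as a whole larva of this stage holds those tissues. Not every member was found: the intestinal genes mtl-1 and ftn-1 had at most 7 counts in a library. The pharyngeal gene ceh-22 had 0.210 to 0.550 TPM, and the sperm genes msp-58 and nspd-8 had a count in only 1 library each.

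**Figure D2:**
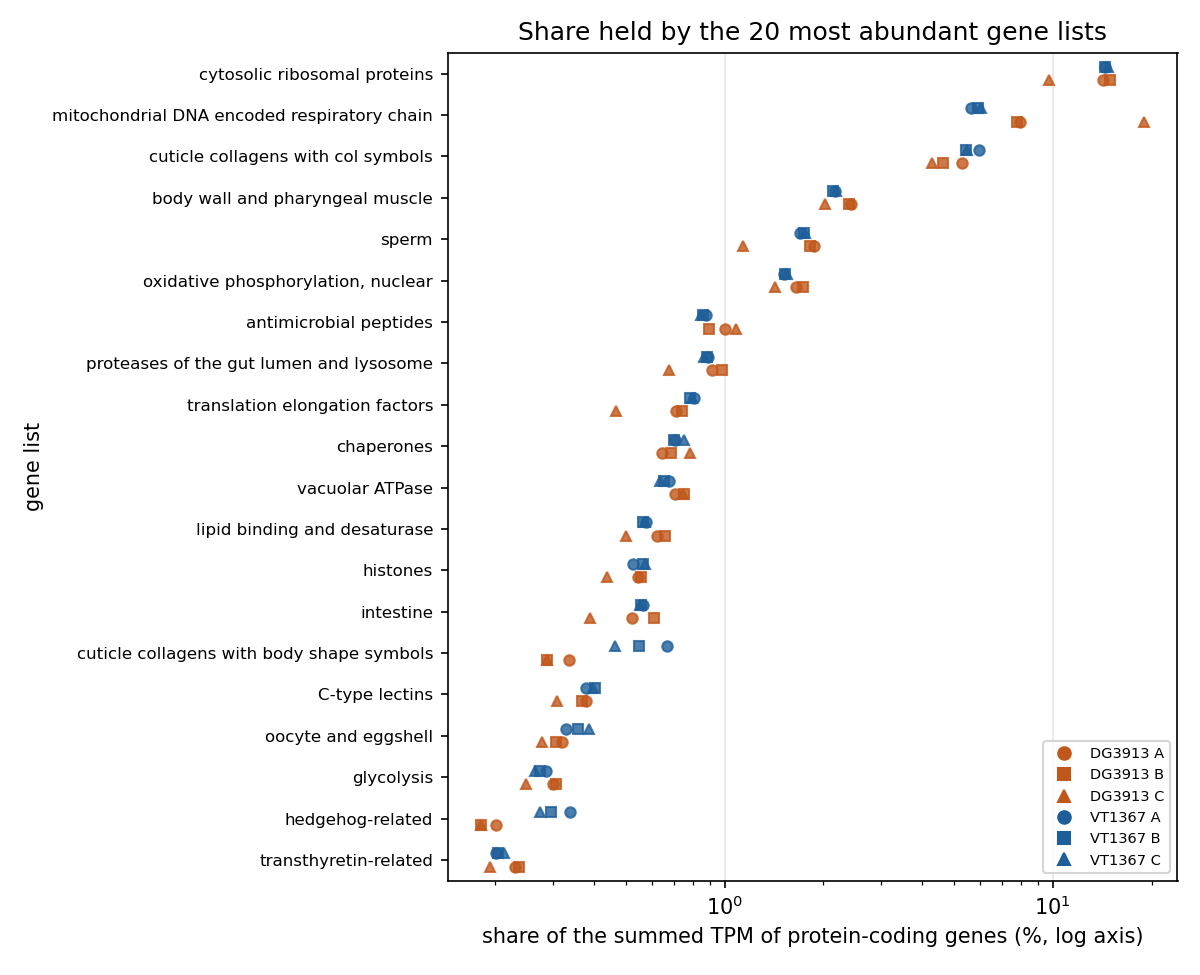
Share of the summed TPM of protein-coding genes (%, log axis) held by the 20 most abundant gene lists in each of the 6 libraries. Ribosomal proteins lead at 9.75% to 15.0%, and body shape collagens lie at 0.287% to 0.337% in DG3913 and 0.465% to 0.669% in VT1367.

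The order of genes was alike in both strains. Of the 30, 100 and 500 highest genes of each strain, 25, 85 and 440 were shared, and of the 100, 90 were shared without DG3913 C. Over 13273 genes of at least 1 TPM, the Spearman correlation across genes was 0.982 to 0.985 within VT1367 and 0.979 between DG3913 A and B, and 0.957 between DG3913 C and either of them. Between the strains it was 0.958 to 0.965 without DG3913 C and 0.933 to 0.937 with it. These correlations are across genes, which are not independent replicates, and are given as a description.

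**Figure D3:**
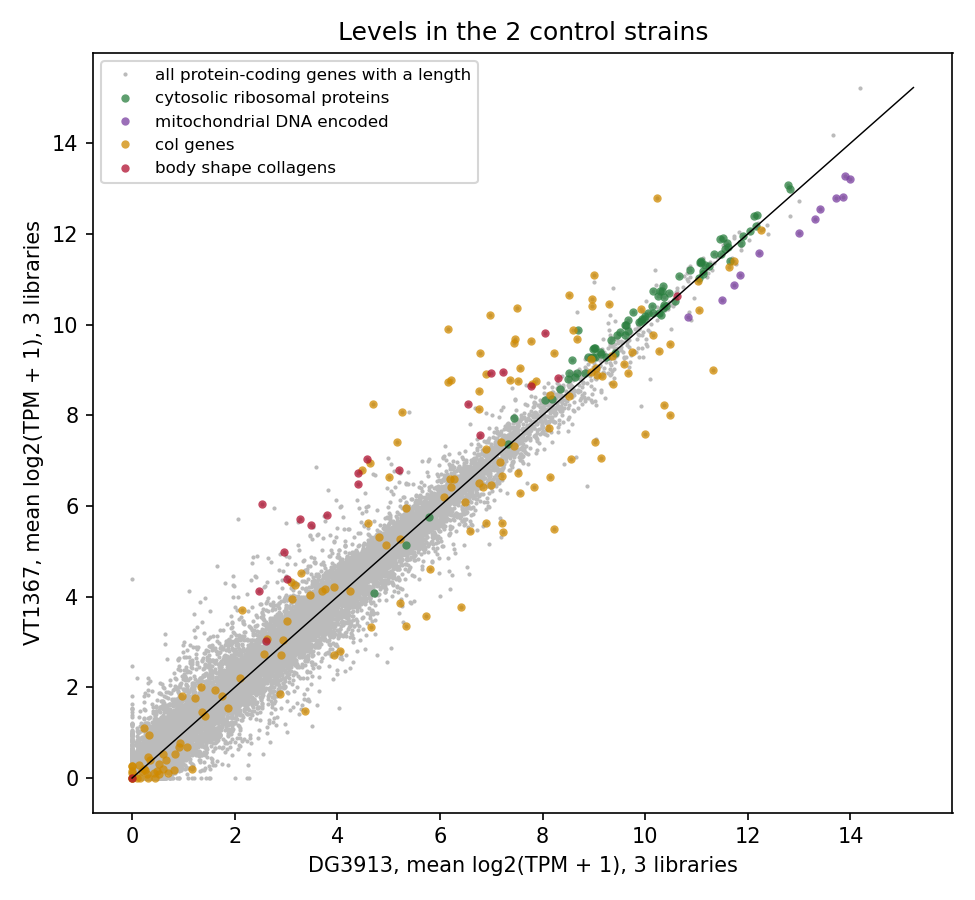
Mean log2(TPM + 1) over 3 libraries of each protein-coding gene in DG3913 (x axis) and VT1367 (y axis), with the line of equal level. Ribosomal protein genes lie close to the line, mitochondrial genes lie below it, and collagens lie on both sides.

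The question of where the strains differ was put to all entries at once with edgeR's quasi-likelihood test and Benjamini-Hochberg adjustment, with a threshold of 0.05. Log2 fold changes are VT1367 minus DG3913. Of 12559 entries tested, 1299 passed, or 10.3%. Of these 577, or 4.59% of those tested, were higher in VT1367 and 722, or 5.75%, were higher in DG3913, and the median log2 fold change of all entries was -0.004. A change of at least 1 on the log2 scale was reached by 585 of the called entries, 4.66% of those tested, with 2.49% higher in VT1367 and 2.17% higher in DG3913. Without DG3913 C, 1970 of 12966 passed, or 15.2%, with 836 (6.45%) higher in VT1367 and 1134 (8.75%) higher in DG3913. Leaving out VT1367 C gave 665, VT1367 B 667, VT1367 A 720 and DG3913 A 816. The share of tested genes that passed was 14.8% on the X chromosome, 13.2% on V, 10.7% on II and on IV, 7.07% on I and 7.02% on III.

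With all 6 libraries, the most abundant genes passed about as often as all entries did, and more often without DG3913 C. Of the 100 highest, 9 passed, 4 higher in VT1367 and 5 higher in DG3913, against the background of 10.3%, and their median log2 fold change was -0.03. F41F3.3 was higher in VT1367 by 0.94 (SE 0.19, edgeR adjusted p = 0.00886). It no longer passed in edgeR without VT1367 B (adjusted p = 0.0666) or VT1367 C (adjusted p = 0.0538), or with all 12 libraries in 1 fit (adjusted p = 0.0560), and the log2 fold change was 1.11 without DG3913 C. Among the first 100, col-106 changed most, with 1389, 1085 and 1148 TPM in DG3913 and 6944, 6770 and 7448 TPM in VT1367, a log2 change of 2.48 (SE 0.16, adjusted p = 2.52e-06 with edgeR). This collagen gene stood at rank 115 in DG3913 and at rank 9 in VT1367. The remaining genes higher in VT1367 were K02E11.10 and F53F1.4, and those higher in DG3913 were nduo-5, Y47D7A.13, col-180, ssq-3 and cnc-8. K02E11.10, F53F1.4, Y47D7A.13 and ssq-3 were named after their values were seen. Of these 9 genes, col-106 and cnc-8 passed in every alternative, and the other calls were each lost in at least one fit with a library left out. Without DG3913 C the count was 37, against a background of 15.2%, of which 8 were higher in VT1367 and 29 higher in DG3913.

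The collagens with dpy, rol, sqt, bli, lon and ram symbols, called body shape collagens here, were the list with the largest median change. Mutants of many of them are dumpy, roller, squat, blistered or long. These genes encode cuticle collagens of the furrows, struts and layers. Of 20 tested, 16 passed, all higher in VT1367, and none was higher in DG3913, against 4.59% of all entries. Their median log2 fold change was 1.72, and 19 of 20 showed no overlap between strains, against 16.9% of all entries in that direction. The adult strut collagen gene bli-1 had 4.65, 5.80 and 3.95 TPM in DG3913 and 89.4, 58.4 and 52.8 TPM in VT1367, a log2 change of 3.70 (SE 0.23, adjusted p = 3.03e-06 with edgeR). The strut collagen gene bli-2 had 21.7, 21.1 and 17.7 TPM against 142, 99.4 and 81.2 TPM, and lon-3 had 30.6, 25.5 and 15.1 TPM against 165, 127 and 103 TPM. The groups did not overlap for any of these 3 genes, and VT1367 A was the highest. The more abundant sqt-3 had 159, 127 and 100.4 TPM in DG3913 and 622, 454 and 404 TPM in VT1367, a log2 change of 1.87 (SE 0.19, adjusted p = 6.94e-05 with edgeR), and bli-6 and rol-8 were also higher in VT1367, by 1.71 and 1.68. The highest member, ram-2, averaged 1582 TPM in DG3913 and 1585 TPM in VT1367, a large part of the mean list share of 0.304% and 0.561%. It had 1436 to 1720 TPM in DG3913 and 1350 to 1746 TPM in VT1367 and did not pass. Neither did dpy-13, rol-6 or dpy-17, with log2 fold changes of 0.47, 1.39 and 0.39, and dpy-14 had no count in any library. VT1367 A was the highest library of its strain for all 20 genes tested, and DG3913 A for 15. Without DG3913 C, 12 passed, against 6.45% of all entries, with a median of 1.73, and rol-8 (edgeR adjusted p = 0.0675) and dpy-7 (0.0686) were among the calls lost.

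Collagens with col symbols changed in both directions. Of those tested, 62.2% passed, with 39 genes higher in VT1367 and 35 higher in DG3913, against 4.59% and 5.75% of all entries, and the median log2 fold change was 0.10. The genes higher in VT1367 together held 0.865%, 0.769% and 0.664% of the TPM in DG3913 and 3.12%, 2.85% and 2.91% in VT1367. Those higher in DG3913 held 2.1%, 1.83% and 1.61% in DG3913 and 0.855%, 0.732% and 0.709% in VT1367. These sums were taken over genes chosen by the test and only describe their weight. The 45 genes that did not pass, col-159 and col-160 among them, held 2.01% to 2.32% and 1.86% to 1.99%. Without DG3913 C, 42 were higher in VT1367 and 44 higher in DG3913, against 6.45% and 8.75%.

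Among the col genes higher in VT1367, col-120 had 43.6, 38.5 and 37.6 CPM in DG3913 and 575, 503 and 471 CPM in VT1367, a log2 change of 3.69 (SE 0.14, adjusted p = 4.70e-08 with edgeR). CPM are counts scaled to the same total in each library, with library sizes adjusted by TMM, the trimmed mean of M values. The others named by the size of their change were col-60, with 3.55, col-88, with 3.15, col-181, with 2.80, and col-7, with 2.73. Lack of overlap between strains was a condition for naming them. In the other direction, col-101 had 253, 221 and 219 CPM in DG3913 and 34.5, 27.5 and 36.3 CPM in VT1367, a log2 change of -2.81 (SE 0.14, adjusted p = 3.85e-07 with edgeR). Further col genes higher in DG3913 were col-41, with -2.80, col-98, with -2.56, col-103, with -2.49, col-166, with -2.19, and col-169, with -2.12. Y69H2.14, which the annotation names col-42, had 1608, 1234 and 1623 CPM in DG3913 and 320, 251 and 273 CPM in VT1367, a log2 fold change of -2.40. Its rank by TPM was 52 in DG3913 and 294 in VT1367, whereas col-120 stood at 1866 and 158.

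Moulting genes were higher in VT1367 for 9 of 14 tested and higher in DG3913 for none, against 4.59% and 5.75% of all entries, with a median log2 fold change of 1.23. The apical matrix gene noah-1, which encodes a zona pellucida domain protein, had 17.1, 14.1 and 13 TPM in DG3913 and 102, 63.4 and 51.7 TPM in VT1367, and its partner noah-2 had 14.8, 11.4 and 11.3 TPM against 73.8, 49.8 and 42.5 TPM. The strains did not overlap for either gene, and VT1367 A was the highest library for 13 of the 14 genes of the list. The fibrillin-like gene fbn-1 was higher by 2.67 (SE 0.25, edgeR adjusted p = 6.75e-05) and mlt-10 by 1.72. The nuclear receptor gene nhr-23, which drives moulting, had 20.6 to 28.3 TPM in DG3913 and 27.1 to 32.2 TPM in VT1367 and did not pass, and neither did the protease genes nas-36 and nas-37. Without DG3913 C, 6 passed, against 6.45% of all entries, with a median of 1.2, and noah-1 and mlt-10 were among the calls lost.

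Of the hedgehog-related genes, which encode secreted proteins, 17 of 29 tested were higher in VT1367 and 3 higher in DG3913. The shares of all entries were 4.59% and 5.75%, and the median log2 fold change of the list was 0.99. The highest, grl-16, had 646, 528 and 747 TPM in DG3913 and 1321, 1196 and 1046 TPM in VT1367. The warthog gene wrt-4 had 16, 11.2 and 12 TPM against 100.1, 75.6 and 70.7 TPM, a log2 change of 2.57 (SE 0.18, adjusted p = 4.03e-06 with edgeR). The strains did not overlap for either gene. In contrast, grd-3 had 170, 188 and 89.4 TPM in DG3913 and 49.8, 48.9 and 59.6 TPM in VT1367, a log2 fold change of -1.58, and grd-10 and grl-4 were also higher in DG3913, by -0.69 and -0.46. These last 2 calls were lost with the replicate letter as a block, where grd-3 alone remained higher in DG3913, and without any 1 of the VT1367 libraries, and grd-10 also with DESeq2. The call of grl-16 was lost without DG3913 A, VT1367 A or VT1367 B and with all 12 libraries in 1 fit. Without DG3913 C, 17 of 31 were higher in VT1367 and 4 higher in DG3913, against 6.45% and 8.75%. Of the patched-related genes, which are related to hedgehog receptors, 5 of 25 were higher in VT1367 and 2 higher in DG3913, beside the same 4.59% and 5.75%, and ptc-3 and ptc-1, the highest, did not pass.

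**Figure D4:**
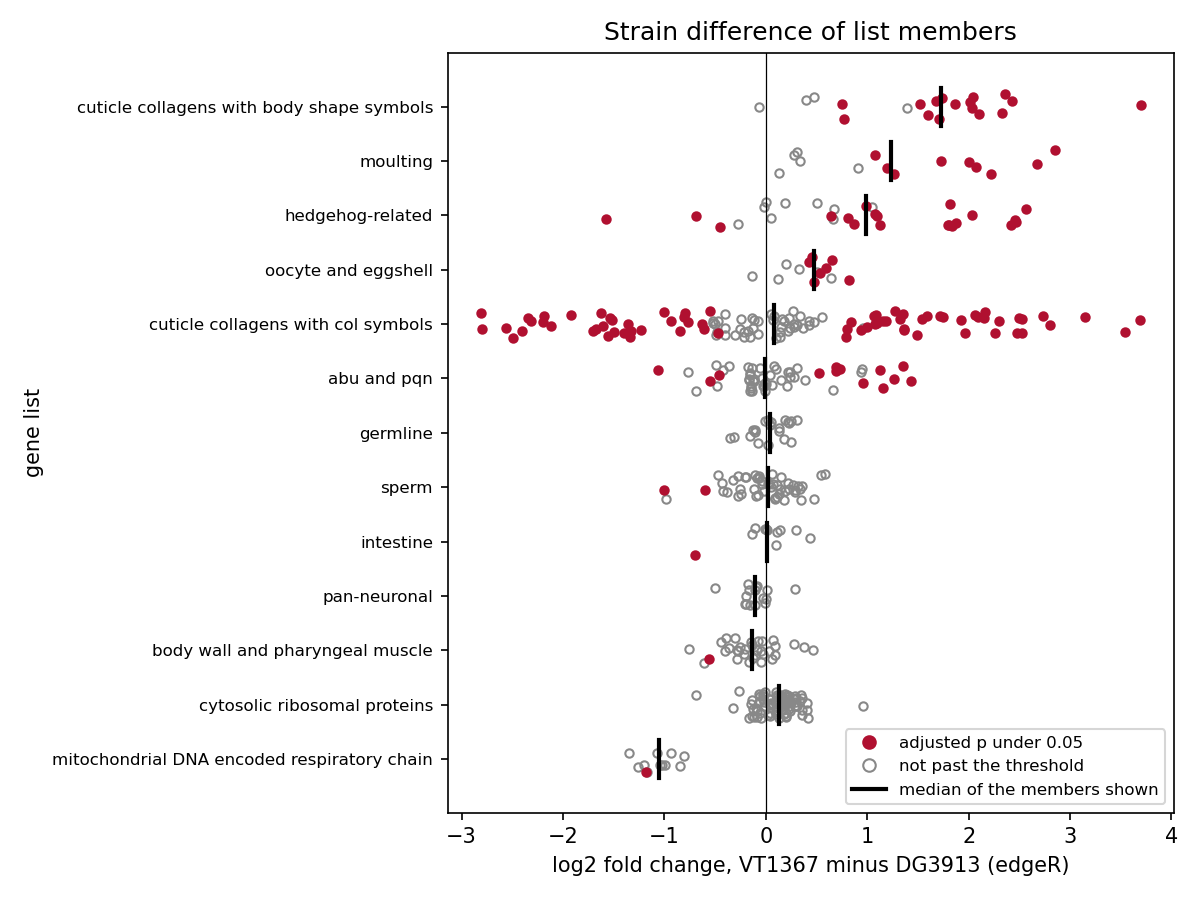
Log2 fold change (VT1367 minus DG3913, x axis) of each tested member of 13 gene lists, with members past the adjusted p threshold filled and a bar at the median. Body shape collagens (median 1.72) and moulting genes (median 1.23) lie to the right, col genes spread from -2.81 to 3.69, and muscle, neuronal and ribosomal protein genes lie near 0.

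Stage markers divided into genes that passed and genes that did not. Higher in VT1367 were bli-1 and bli-2, col-19, lin-41 and the period homologue lin-42, 5 of 10, and none was higher in DG3913. The shares over all entries were 4.59% and 5.75%. The genes bli-1, bli-2 and lin-42 also belong to the collagen and moulting lists above. The adult collagen gene col-19 had 154, 176 and 130 CPM in DG3913 and 317, 301 and 347 CPM in VT1367, a log2 change of 1.06 (SE 0.14, adjusted p = 0.000404 with edgeR). VT1367 carries a col-19 reporter, and what share of this difference comes from the transgene was not tested. For lin-41, the gene with the tagged allele in DG3913, the values were 102, 84.8 and 86.9 CPM in DG3913 and 125, 135 and 131 CPM in VT1367, a log2 change of 0.52 (SE 0.12, adjusted p = 0.0146 with edgeR). The strains did not overlap, but the call was lost without DG3913 B (adjusted p = 0.0502), VT1367 A (0.0557), VT1367 B (0.0965) or VT1367 C (0.0864), each from edgeR. The gene lin-42 had 42.2, 37.7 and 41.4 TPM in DG3913 and 110, 86.5 and 72.5 TPM in VT1367. The heterochronic genes lin-14, lin-28, hbl-1, lin-29 and mab-10 had log2 fold changes of -0.09, 0.08, -0.23, -0.16 and 0.02 and did not pass. The early larval gene lin-14 had 6.03 to 9.05 TPM in DG3913 and 6.26 to 8.71 TPM in VT1367, and hbl-1 had 2.85 to 2.95 TPM and 2.11 to 2.84 TPM.

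Of the epidermis list, 5 of 15 were higher in VT1367 and none was higher in DG3913, against 4.59% and 5.75% of all entries, with a median log2 fold change of 0.13. The 5 called with all 6 libraries were the collagens sqt-3 and dpy-7, the warthog genes wrt-2 and wrt-10, and mua-3, an attachment gene. All except mua-3 also belong to the lists above. Without DG3913 C, 5 were higher in VT1367 and 2 were higher in DG3913, against 6.45% and 8.75% of all entries, and dpy-7 was no longer called. The epidermal regulators lin-26, elt-1 and elt-3 had log2 fold changes of 0.11, 0.12 and -0.43 and did not pass. Of the oocyte and eggshell genes, 7 of 13 were higher in VT1367, against 4.59% of all entries, and none was higher in DG3913, with a median of 0.47. The RNA-binding protein gene spn-4 had 64.3, 79.4 and 47.3 TPM in DG3913 and 103, 121 and 131 TPM in VT1367, a log2 change of 0.82 (SE 0.16, adjusted p = 0.00583 with edgeR). The eggshell gene cpg-1 had 91.5, 101 and 74.1 TPM against 139, 151 and 149 TPM. The strains did not overlap for either. VT1367 C was the highest library of its strain for 10 of the 13 genes and VT1367 A for none, and 9 passed without DG3913 C, against 6.45% of all entries, whereas 2 passed without DG3913 B, VT1367 B or VT1367 C and 3 without VT1367 A.

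With all 6 libraries, several lists had shares of calls below or near the 10.3% of all entries (15.2% without DG3913 C). In lists of 6 to 11 genes, an absence of calls says little. None of 83 ribosomal protein genes passed with edgeR or with DESeq2, 5 had an unadjusted p under 0.05, and their median log2 fold change was 0.13. Without DG3913 C, 3 passed, 1 higher in VT1367 and 2 higher in DG3913, and the median was -0.03. None of 21 germline, 16 neuronal, 10 pharyngeal, 10 basement membrane and 6 yolk protein genes passed with edgeR or DESeq2. The pharyngeal genes myo-1, myo-2, tnt-4 and tnc-2 and the basement membrane gene unc-52 are also among the muscle genes. An unadjusted p under 0.05 was reached in edgeR by 0 germline, 0 neuronal, 1 pharyngeal, 3 basement membrane and 3 yolk protein genes, and without DG3913 C 3 basement membrane and 2 yolk protein genes passed. Of 33 muscle genes 1 passed, the troponin T gene tnt-2, higher in DG3913, beside 5.75% of all entries. Without DG3913 C 8 passed, 1 higher in VT1367 and 7 higher in DG3913, against 6.45% and 8.75% of all entries. The call of tnt-2 was lost with the block and without any 1 of the VT1367 libraries. Of 11 intestinal genes 1 passed, the cathepsin B-like protease gene cpr-1, which was higher in DG3913 by -0.70. This gene is counted again among the gut and lysosomal proteases below. Of 54 sperm genes 3 were higher in DG3913, beside 5.75% of all entries. Without DG3913 C, 1 was higher in VT1367 and 9 were higher in DG3913, against the same 6.45% and 8.75%. Nuclear oxidative phosphorylation had 3 of 47 higher in DG3913, glycolysis 2 of 19 and vacuolar ATPase 1 of 20, with none higher in VT1367, beside 5.75% of all entries higher in DG3913. Without DG3913 C these 3 lists had 7, 5 and 3 genes higher in DG3913, and with the replicate letter as a block 1, 0 and 1. The shares without DG3913 C were above 8.75% of all entries for these 3 lists, as they were for muscle and sperm genes. Both glycolysis calls, gpd-2 and aldo-1, which were named after their values were seen, were lost without any 1 of the VT1367 libraries.

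The 12 mitochondrial respiratory chain genes had a median log2 fold change of -1.06, and 1 passed, beside 10.3% of all entries. The gene that passed was nduo-5, with 6457, 6186 and 13753 TPM in DG3913 and 3991, 4237 and 4172 TPM in VT1367, a log2 change of -1.18 (SE 0.31, adjusted p = 0.0357 with edgeR). It was lost when any VT1367 library was left out, with an adjusted p of 0.115 to 0.119, and with DESeq2 (adjusted p = 0.0797). Without DG3913 C the median was -0.49 and 10 of 12 passed, all higher in DG3913, against 8.75% of all entries. Among the 10 were ctb-1 with -0.41, ctc-1 with -0.32, atp-6 with -0.52 and nduo-5 with -0.65. The changes were thus smaller and the calls more when the library with the highest mitochondrial share was left out.

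In the remaining lists the counts of calls stand beside 4.59% of all entries higher in VT1367 and 5.75% higher in DG3913. Among others, abu and pqn genes, cuticlins, histones, chaperones and glutathione S-transferases were above that background in the share higher in VT1367. Gut and lysosomal proteases were above it in the share higher in DG3913, and antimicrobial peptide genes in both directions. C-type lectins were near it in both. Antimicrobial peptide genes had 4 of 29 higher in VT1367 and 5 higher in DG3913. The caenacin gene cnc-8 had 1859, 1670 and 2196 TPM in DG3913 and 1021, 1236 and 1058 TPM in VT1367, a log2 change of -0.86 (SE 0.15, adjusted p = 0.00321 with edgeR), and fip-5 and nlp-27 were lower in VT1367 by -1.36 and -0.73. The strains did not overlap for cnc-8. The highest of the list, nlp-33, did not pass, but passed without DG3913 C, higher in VT1367 by 0.31 (edgeR adjusted p = 0.0227). Of 57 abu and pqn genes, which encode glutamine and asparagine-rich proteins, 11 were higher in VT1367 and 3 higher in DG3913. C-type lectins had 4 of 75 in each direction, cuticlins 3 and 1 of 12, and gut and lysosomal proteases 1 and 5 of 19, with the higher in VT1367 given first. By the same order, lipid binding and desaturase genes had 1 and 3 of 22, transthyretin-related genes 1 and 4 of 41, tubulins 1 and 1 of 8, histones 3 and 0 of 27, chaperones 3 and 0 of 17, glutathione S-transferases 2 and 0 of 19, and translation elongation factors 1 and 0 of 6. Without DG3913 C, the counts passing rose to 14 of 29 for antimicrobial peptide genes and 7 of 28 for histones, of which 4 were higher in DG3913. They rose to 9 for transthyretin-related genes, 6 for lipid binding and desaturase genes and 15 for abu and pqn genes. Gut and lysosomal proteases then had 8, of which 7 were higher in DG3913, chaperones 4, and tubulins and glutathione S-transferases 3 each. C-type lectins had 11 of 78, near the background of 15.2%. The elongation factor that passed was eef-1A.2, with 141, 177 and 83.4 TPM in DG3913 and 279, 247 and 246 TPM in VT1367, and its call was lost without DG3913 A or any 1 of the VT1367 libraries.

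Outside the lists, the genes with the largest changes at a mean of at least 20 CPM included aex-5, which encodes a kexin-like proprotein convertase. It had 4.70, 5.01 and 7.84 CPM in DG3913 and 56.6, 61.1 and 52.7 CPM in VT1367, a log2 change of 3.36 (SE 0.17, adjusted p = 5.45e-07 with edgeR). E01G4.6 was higher in VT1367 by 3.31 (SE 0.20, edgeR adjusted p = 1.51e-06), and F46F2.3 was higher in DG3913, with 153, 200 and 129 CPM against 38.1, 21 and 26.7 CPM. The dumpy gene dpy-1 had 43.6, 26 and 33 CPM in DG3913 and 9.73, 7.83 and 6.64 CPM in VT1367, a log2 change of -2.09 (SE 0.21, adjusted p = 7.84e-05 with edgeR), opposite in direction to the body shape collagens that passed. Lack of overlap between strains was a condition for naming these 4 genes. Of the 20 genes named for the size of their change, 13 were cuticle collagens.

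**Figure D5:**
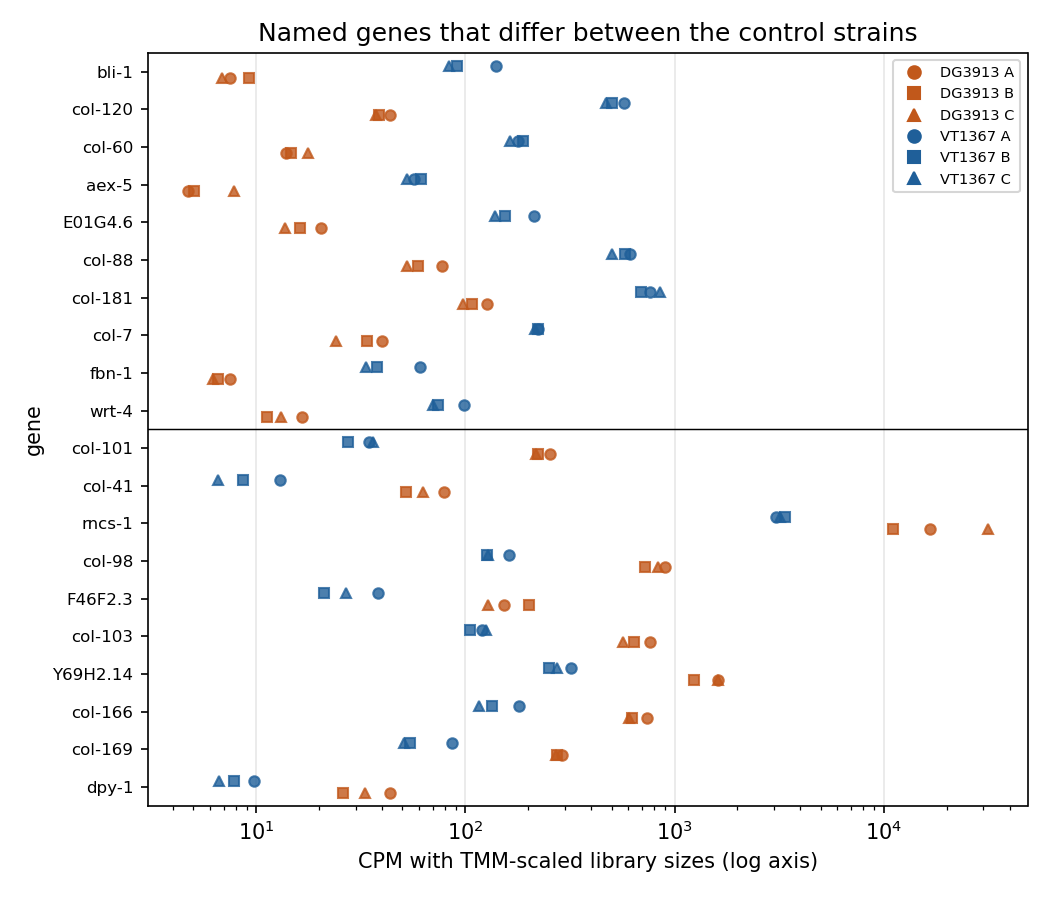
CPM with TMM-scaled library sizes (log axis) of the 20 genes named for the size of their strain difference in each of the 6 libraries, with those higher in VT1367 above the line and those higher in DG3913 below it. They run from bli-1 (log2 fold change 3.70) to dpy-1 (-2.09), and lack of overlap between strains was a condition of their choice.

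Among entries that are not protein coding, the RNase P RNA gene rpr-1 was the most abundant. It held 19.6%, 15.9% and 33% of the analysed counts in DG3913 and 14.6%, 16% and 15.1% in VT1367, with DG3913 C the highest, and its log2 fold change of -0.97 did not pass (SE 0.38, edgeR adjusted p = 0.133). The RNase MRP RNA gene mrpr-1 held 1.37% to 2.28% and 1.95% to 2.27%, the snoRNA gene ZK643.9 held 1.29% to 2.59% and 1.44% to 1.71%, and MTCE.7, an entry without a match in the annotation, held 1.2% to 1.73% and 1.01% to 1.1%. None of these 3 passed. The entry sup-6, an snRNA in the annotation, held 1.23% to 1.59% in DG3913 and 0.991% to 1.06% in VT1367, a log2 change of -0.80 (SE 0.18, adjusted p = 0.0168 with edgeR). The non-coding RNA gene rncs-1, known for its rise on starvation, had 16739, 11066 and 31395 CPM in DG3913 and 3066, 3390 and 3197 CPM in VT1367, a log2 change of -2.62 (SE 0.34, adjusted p = 0.000636 with edgeR). All DG3913 libraries were above all VT1367 libraries, which was a condition for naming this gene, and without DG3913 C the log2 fold change was -2.11.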

How the data were processed

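The authors deposited raw read counts per gene in 2 tables. The submitters' processing notes name cutadapt 1.9, Bowtie2 2.3.4.3, featureCounts and Subread 1.6.2. Genome build, annotation, strand setting and treatment of multiply mapped reads are not given in the sources used here. Of the entries, 40517 matched a symbol of the WBcel235 annotation (Ensembl release 115), 1417 a locus tag and 13 an alias, 4287 had a RefSeq biotype only and 474 were unmatched. Exon lengths for TPM came from that annotation.

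Genes were ranked by mean log2(TPM + 1) in each strain. Strains were compared on the counts with edgeR 4.0.16 in R 4.3.3 (glmQLFit robust, glmQLFTest, TMM, filterByExpr with a minimum count of 10 and total of 15, 2-sided). On simulated counts (12401 genes), 68% of genes changed 2-fold and 97% of those changed 4-fold were recovered, with 13 false calls of 178. Named genes were the 30 highest, the 10 largest called changes per direction without overlap at 20 CPM or more, up to 10 highest members per list, the 5 highest non-coding entries, lin-41 and col-19. Members and lists were chosen with earlier results of these data known. Alternatives included DESeq2 1.42.0, RLE size factors, other filters, all 12 libraries in 1 fit, and each library left out. Fits without mitochondrial entries were added after seeing the data. Figures were drawn with matplotlib 3.10.9.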

Additional observations from a re-analysis of the deposited data

How the results depend on the processing

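Over the 6 fits that each left out 1 library, the genes differing between the control strains numbered 665 to 1970 (main 1299), those higher in VT1367 315 to 836 and those higher in DG3913 325 to 1134. In the same fits, oocyte and eggshell genes higher in VT1367 were 2 to 9, muscle genes past the threshold 0 to 8, ribosomal protein genes 0 to 3 and genes of the top 100 2 to 37. At an adjusted p under 0.01 these were 554, 269, 285.0, 2, 0, 0 and 4, in the same order, and with at least 1 on the log2 scale 585, 313, 272, 0, 0, 0 and 2. Without a count filter, 1926 genes were called, 17 of the top 100, 2 ribosomal protein genes and 3 muscle genes. With all 12 libraries in 1 fit, 1877 genes were called, 1 ribosomal protein gene and 5 muscle genes, and with DESeq2 1127 genes and 2 muscle genes. No called gene changed its sign under any of the 15 alternatives with a test, and all 20 genes named for their strain difference passed in every alternative that held them.

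No sign of pairing by letter was seen: the correlation of deviations between libraries of the same letter was 0.11, -0.06 and -0.05. Between different letters it was -0.08 to 0.15. With 3 libraries per strain, this cannot show whether libraries of the same letter were handled together. With the replicate letter as a block, 1057 genes were called, with 3 oocyte and eggshell, 1 ribosomal protein and 0 muscle genes.

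Without length scaling, 16 of the 30 highest genes stayed among the first 30. The list shares then were 6.91% for ribosomal proteins (13.8% per length), 4.43% for col genes (5.19%), 3.10% for muscle (2.22%) and 0.500% for sperm (1.67%). Over nuclear genes alone col genes held 5.67% and muscle 2.44%. Leaving out 1 library kept 28 to 30 of the 30 genes and 84 to 90 shared among the 100.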
